A study of Mus musculus with 8 samples.

Results

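The 9 genes described here cover the life cycle of GABA (gamma-aminobutyric acid), the main inhibitory transmitter of the adult brain, and its slow receptor. They were taken by exact gene symbol from the deposited expression table: Gad1, Gad2, Slc32a1, Slc6a11, Abat, Aldh5a1, Gabbr1, Gabbr2 and Gphn. All 9 are among the 21959 genes of the table and all 9 passed the filter on low counts, which left 14536 genes to test. The data are polyadenylated RNA sequencing of mouse brain labelled wild type, with 4 libraries of the Model group, labelled as treated with PCPA (para-chlorophenylalanine, which blocks serotonin synthesis), and 4 of the IsoL group, labelled as treated with isoliensinine, a plant alkaloid studied for its effect on sleep. According to the series design, the mice were female and of the ICR stock, IsoL was given at 12.5, 25 or 50 mg/kg over 7 days, pentobarbital followed 40 minutes later, and the hypothalamus was isolated, while the tissue label reads brain. The labels do not say which dose was sequenced, whether IsoL mice also had PCPA, how old the mice were, or whether each library is a different mouse, so p-values measure only the library-to-library spread, and that may be technical. Pentobarbital is a barbiturate and acts on GABA-A receptors, and the blank control and alprazolam groups were not analysed here. The comparison asks whether transcripts of the GABA system differed between IsoL and Model.

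GABA is made from glutamate by glutamate decarboxylase, loaded into vesicles, released, taken back up by plasma membrane transporters into neurons and astrocytes, and broken down in mitochondria to succinate. Its GABA-A receptors are chloride channels, the site of benzodiazepines and barbiturates, while GABA-B receptors are G protein-coupled and act through potassium channels, calcium channels and adenylyl cyclase. In the hypothalamus GABA neurons of the preoptic area are known for promoting sleep, and others in the lateral and arcuate regions regulate arousal and feeding.

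Total counts per library were 14262836 to 21620466. Each of the 8 libraries held counts of 4 Y-linked genes, although the mice are described as female. Per library these were 2015 to 3385 counts for Ddx3y, 930 to 1288 for Eif2s3y, 690 to 1058 for Kdm5d and 537 to 1194 for Uty. Xist, also looked for, is not among the genes of the deposited table, so its level cannot be given. IsoL 1 and IsoL 2 stood apart by markers of the choroid plexus, the epithelium that secretes cerebrospinal fluid: the summed level of 7 such genes was 725 and 623 CPM (counts relative to the library total, the usual CPM unit, scaled by the trimmed mean of M-values, TMM) in those libraries, 82.6 in IsoL 3, 33.1 in IsoL 4 and 23.4 to 35.2 in the Model libraries. The summed level of 16 hypothalamic markers was 286 to 341 CPM in Model and 154 to 265 in IsoL, and that of 12 midbrain markers was 23.4 to 62.2 and 57.9 to 127. The gene Otx2 is on both the choroid plexus and the midbrain list. No hypothalamic marker was at 0 in any library. Model 2 stood apart over all counts. A chi-square per degree of freedom, larger the more 2 libraries differ, was 11.3 to 15.9 for its pairs and at most 10.1 for all others. Model 2 also had the highest share of mitochondrial counts, 5.64%. Without Model 2, 73 genes were higher and 73 lower in edgeR, against 17 and 23 with all libraries.

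The promoters of the decarboxylase genes Gad1 and Gad2, the vesicular transporter gene Slc32a1 and the astrocytic transporter gene Slc6a11 are shown first. Gad1, Gad2 and Slc32a1 together define a GABA neuron, and Slc32a1 and Slc6a11 are the members with the lowest and the highest difference between the groups. Each sequence is the 250 bases before the RefSeq transcription start in GRCm38.p6, on the plus strand, at chr2:70561879-70562128 for Gad1, chr2:22622077-22622326 for Gad2, chr2:158610508-158610757 for Slc32a1 and chr6:114130991-114131240 for Slc6a11. Capitals mark matches, on either strand, to the motif GGGCGG of a GC box, the motif TATAAA of a core promoter (TATA box) and the motif TGACG, the core of a cAMP response element.
Gad1: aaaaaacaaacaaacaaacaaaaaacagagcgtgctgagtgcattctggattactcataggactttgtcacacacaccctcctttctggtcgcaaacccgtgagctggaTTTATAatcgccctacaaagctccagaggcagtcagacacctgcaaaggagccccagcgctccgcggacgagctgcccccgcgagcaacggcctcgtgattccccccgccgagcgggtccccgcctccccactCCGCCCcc
Gad2: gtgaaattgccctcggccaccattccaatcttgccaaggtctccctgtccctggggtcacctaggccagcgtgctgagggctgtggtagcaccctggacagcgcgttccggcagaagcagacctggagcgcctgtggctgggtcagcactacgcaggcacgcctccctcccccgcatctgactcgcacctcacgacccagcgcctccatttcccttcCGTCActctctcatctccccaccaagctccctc
Slc32a1: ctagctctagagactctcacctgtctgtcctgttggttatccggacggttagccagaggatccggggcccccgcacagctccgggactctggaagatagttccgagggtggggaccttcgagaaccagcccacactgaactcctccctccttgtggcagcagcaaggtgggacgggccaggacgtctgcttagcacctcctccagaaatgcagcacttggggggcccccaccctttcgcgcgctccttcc
Slc6a11: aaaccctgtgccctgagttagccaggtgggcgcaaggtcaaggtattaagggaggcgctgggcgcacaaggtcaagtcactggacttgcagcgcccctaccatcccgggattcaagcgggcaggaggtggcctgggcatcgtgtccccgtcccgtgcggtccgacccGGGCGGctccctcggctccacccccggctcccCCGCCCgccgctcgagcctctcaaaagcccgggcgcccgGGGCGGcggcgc
The share of G and C was 58.0% for Gad1, 64.0% for Gad2, 62.4% for Slc32a1 and 71.2% for Slc6a11, against a median of 52.4% over 32851 mouse promoters of the same length. The Slc6a11 window holds 3 GC boxes and the Gad1 window 1, a motif found in 32.7% of those promoters. The Gad1 window also holds a match to the TATA box letters (12.4% of promoters) and the Gad2 window a cAMP response core (17.8%). The Gad1 match starts at base 110 of the 250 and reads TATAAA on the strand opposite to the gene. An AP-1 element (TGANTCA, 6.75% of promoters) matched none of the 8 members with a RefSeq promoter entry. These are letter matches and not measured binding sites.

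None of the 9 genes passed the test of IsoL against Model. In edgeR's quasi-likelihood test, with p-values adjusted by Benjamini-Hochberg to a threshold of 0.05, 0 of 9 passed, against 0.275% of all 14536 genes (0.117% higher and 0.158% lower in IsoL). With the replicate number as a block 0 of 9 passed as well, against 0.117% of all genes. DESeq2 called 0 of 9, against 2.14% of all genes, and limma voom 0 of 9, against 1.2%. At an unadjusted p under 0.05 there were 2 of 9, against 13.2% of all genes: Slc6a11 above Model, as were 6.44% of all genes, and Slc32a1 below, as were 6.78%. The libraries of both groups did not overlap for 2 of 9, Abat and Slc32a1, against 8.48% of all genes. Of the 9 genes, 7 had a log2 fold change above 0, against 49.5% of all genes, with a median log2 fold change of 0.019, against -0.0015 for all genes tested; with a library left out the median of the 9 ran from -0.00067 (without IsoL 1) to 0.040 (without IsoL 3). The differences ran from -0.12 to 0.15 on the log2 scale. On simulated data with the depth and the per-gene spread of these libraries, 9 of 100 genes changed by 15% and 92 of 100 changed by 50% were recovered at 4 against 4 libraries. The changed genes were drawn from those with a mean of at least 10 CPM. Each gene was simulated independently, so shifts shared by many genes within a library were not part of it. The 95% intervals set the bounds: for each of the 9 genes the interval lay within a fall of 14.7% and a rise of 19.3%.

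**Figure D1:**
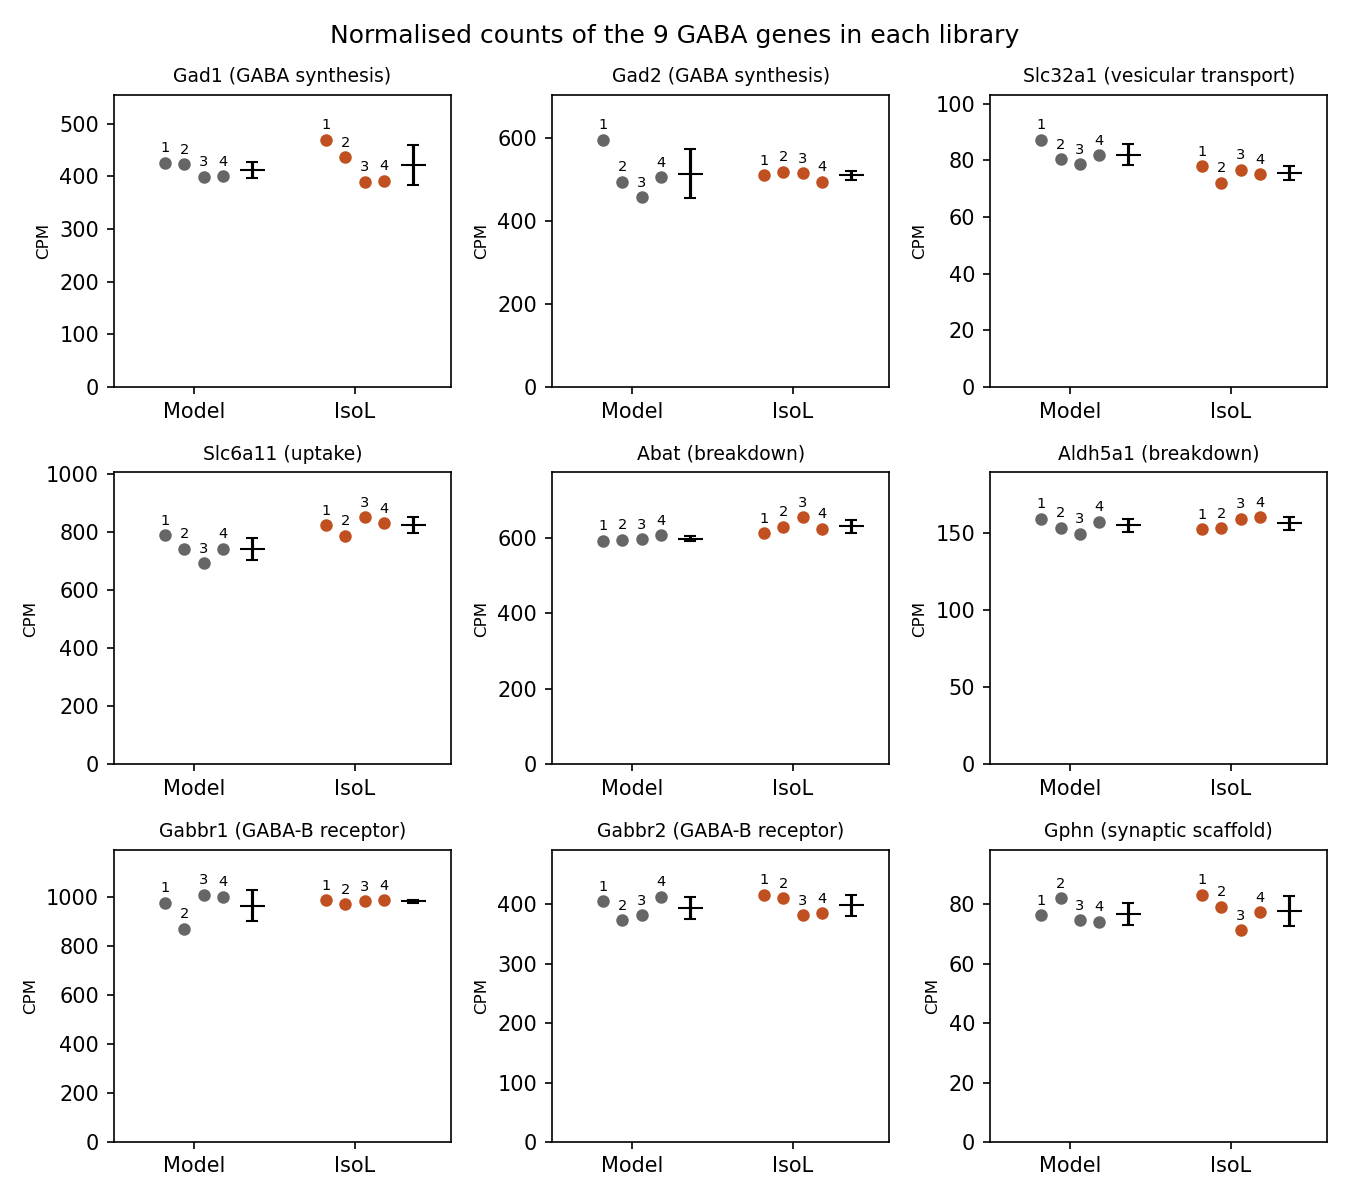
Normalised counts (CPM) of the 9 genes in the 4 Model and 4 IsoL libraries; each point is a library, numbered by its replicate, and the bar beside each group is the mean with its SD. The groups overlap for all genes but Slc32a1 and Abat.

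**Figure D2:**
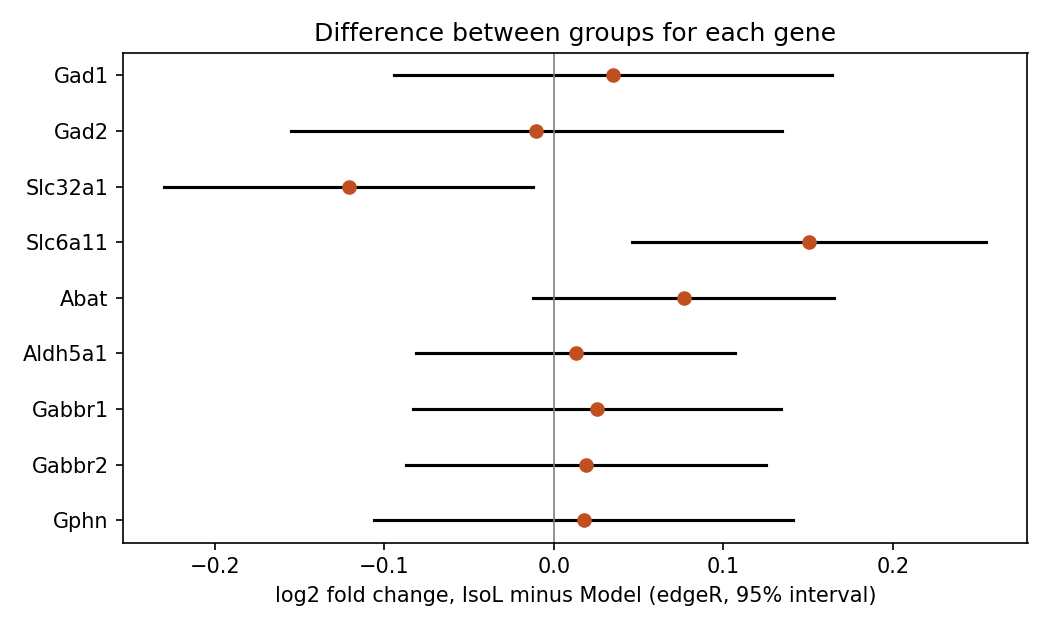
Log2 fold change of IsoL minus Model for each gene (points) with its 95% interval from edgeR (lines). The intervals of Slc6a11 and Slc32a1 lie on one side of 0, before adjustment for the genes tested, and the other 7 span it.

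Gad1 encodes GAD67, the decarboxylase that makes most of the GABA in neurons. It was at 426, 423, 399 and 400 CPM in Model 1 to 4 and at 470, 436, 390 and 392 CPM in IsoL 1 to 4. IsoL 1 and 2 were the highest libraries of all and IsoL 3 and 4 the lowest, so the IsoL group spanned the whole Model range. The means were 412 ± 14.4 and 422 ± 38.4 CPM (SD, n = 4 each), a log2 fold change of 0.035 (95% interval -0.095 to 0.16, edgeR adjusted p = 0.843). The high pair was the pair with choroid plexus markers, and that pair also carried more of Slc17a7, the vesicular glutamate transporter gene of cortex and hippocampus, at 160 and 146 CPM against 58.9 to 81.5 in the other libraries. The part of this tissue mix in the Gad1 level was not tested; without IsoL 1 and 2, a comparison chosen after seeing the data, the log2 fold change of Gad1 was -0.076.

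Gad2 encodes GAD65, the decarboxylase bound to synaptic vesicles that supplies GABA on demand. Its values were 596, 495, 457 and 505 CPM in Model 1 to 4 and 510, 518, 515 and 495 CPM in IsoL 1 to 4. Model 1 was the highest and Model 3 the lowest of the 8 libraries, and all IsoL values fell between them. The means were 513 ± 58.9 and 510 ± 10.5 CPM (edgeR log2 fold change -0.010 with a 95% interval of -0.15 to 0.13, adjusted p = 0.964). The log2 fold change was 0.069 without Model 1 and -0.056 without Model 3, so the sign of this difference rested on single libraries.

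The balance of both decarboxylase transcripts was compared within libraries. The Gad1 to Gad2 count ratio within a library was 0.714 to 0.872 in Model and 0.757 to 0.921 in IsoL, with means of 0.808 ± 0.0717 and 0.828 ± 0.0713 (SD, n = 4). The difference of 0.035 on the log2 scale was not larger than the spread (exact permutation test over 70 assignments, two-sided, p = 0.743, adjusted p = 0.943 over the 4 ratios tested). Per base of the deposited gene length Gad1 stood at 0.622 of Gad2 in Model and 0.637 in IsoL. Those lengths, 7639 bases for Gad1 and 5876 for Gad2, are given per gene. The length of the transcripts expressed was not measured.

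Slc32a1 encodes VGAT, the transporter that loads GABA and glycine into synaptic vesicles. It was at 87.3, 80.4, 78.5 and 81.8 CPM in Model 1 to 4 and at 77.9, 72.1, 76.7 and 75.0 CPM in IsoL 1 to 4. Every IsoL library was below every Model library, with IsoL 1 just under Model 3, a pattern that 4.42% of all genes showed in this direction. The means were 82.0 ± 3.79 and 75.4 ± 2.53 CPM (log2 -0.12, SE 0.051, 95% interval -0.23 to -0.012), which did not pass (unadjusted p = 0.0318, edgeR adjusted p = 0.322). The difference kept its sign in each of the 14 alternative fits, from -0.14 to -0.090, and passed in none of them. The hypothalamic markers, whose summed level did not overlap between the groups, were also lower in sum. Of 15 tested markers 12 were below Model and 3 above, against 49.5% of all genes above. Of the 15, 1 passed lower, Pmch (edgeR: log2 fold change -0.89, adjusted p = 0.0471), against 0.158% of all genes. Transcripts of GABA neuron identity also had a lower summed level, at 832 to 977 CPM in Model and 750 to 806 in IsoL, a sum that Calb1 enters at 230 and 179 CPM. Of those 26 genes 9 were above Model, against 49.5% of all genes. With each gene weighted equally the groups overlapped (mean centred log2 level -0.069 to 0.13 in Model and -0.10 to 0.038 in IsoL). The part of either in the Slc32a1 level was not tested, and in these bulk libraries fewer cells of a type and less RNA per cell cannot be told apart.

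Slc6a11 encodes GAT3, a GABA transporter found mainly on astrocytes. It had the smallest p of the 9 genes. Its level was 788, 742, 693 and 742 CPM in Model 1 to 4 and 823, 787, 851 and 830 CPM in IsoL 1 to 4. All IsoL libraries but IsoL 2 were above the highest Model library, Model 1. The means were 741 ± 39.0 and 823 ± 26.5 CPM, a mean 11% higher in IsoL (log2 0.15, SE 0.049, 95% interval 0.046 to 0.26), which did not pass over all genes (unadjusted p = 0.00810, edgeR adjusted p = 0.209). The adjusted p was 0.0518 in DESeq2, 0.0765 in limma voom and 0.0518 to 0.465 over all 14 alternatives. Of 10 astrocyte markers 9 were above Model, against 49.5% of all genes, none passed, and none was at 0 in any library. Their log2 fold changes ran from -0.20 to 0.29, with a median of 0.061. Their summed level was 4033 to 4520 CPM in Model and 4661 to 4767 in IsoL, a sum in which Slc1a2 weighs most. With each gene weighted equally, as the mean centred log2 level, the groups overlapped: Model ran from -0.15 to 0.031 and IsoL from -0.020 to 0.13. Among them, and named after their values were seen, Aqp4, the astrocytic water channel gene, averaged 288 CPM over the Model and 341 over the IsoL libraries (edgeR: log2 fold change 0.24, adjusted p = 0.116), and Slc1a2, the main glutamate transporter gene of astrocytes, at 1924 and 2197 CPM (edgeR: log2 fold change 0.19, adjusted p = 0.252). Other glial markers were also mostly above Model, against 49.5% of all genes, with no gene past the threshold: 8 of 8 for microglia (median log2 fold change 0.17), 9 of 10 for oligodendrocytes (median 0.11) and 4 of 5 for oligodendrocyte precursors (median 0.041). At an unadjusted p under 0.05, 4 microglial and 3 oligodendrocyte genes were above Model and 1 precursor gene below, against 6.44% and 6.78% of all genes. The summed precursor level was 350 to 376 CPM in Model and 351 to 369 in IsoL. The part of glial content in the Slc6a11 level was not tested.

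**Figure D3:**
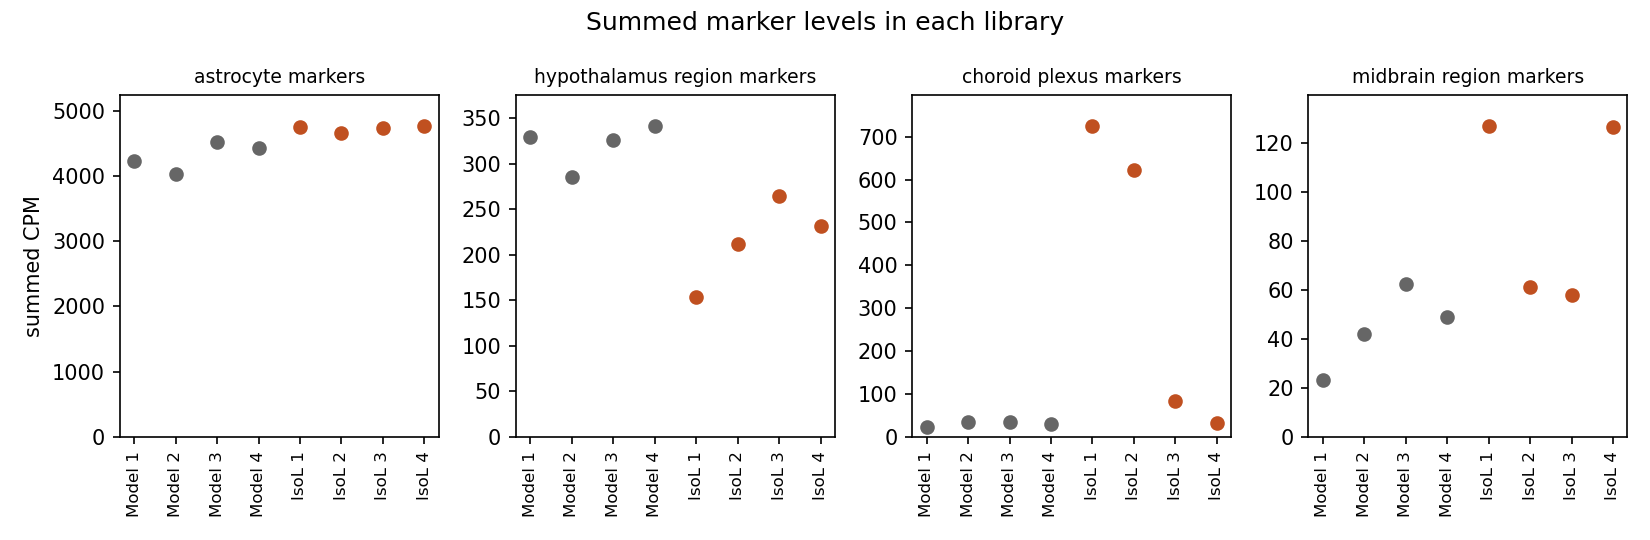
Summed CPM of the astrocyte, hypothalamus, choroid plexus and midbrain marker lists in each library (grey, Model; orange, IsoL). The summed astrocyte level is higher and the summed hypothalamic level lower in every IsoL library than in every Model library, though astrocyte genes weighted equally overlap between the groups, and choroid plexus markers are far higher in IsoL 1 and 2.

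The breakdown enzymes act in sequence. Abat encodes GABA transaminase, the mitochondrial enzyme blocked by the antiepileptic vigabatrin, and was at 593, 595, 597 and 607 CPM in Model 1 to 4 and 612, 630, 655 and 625 CPM in IsoL 1 to 4. Every IsoL library was above every Model library, which 4.05% of all genes showed in this direction, although the means of 598 ± 6.13 and 631 ± 18.0 CPM differed by only 5.45% (edgeR log2 fold change 0.077 with a 95% interval of -0.012 to 0.17, adjusted p = 0.453). The difference was above 0 in all 14 alternative fits, from 0.058 to 0.098, and passed in none. Aldh5a1 encodes succinic semialdehyde dehydrogenase, which completes the path to succinate. It was at 160, 154, 150 and 158 CPM in Model 1 to 4 and 153, 153, 160 and 161 in IsoL 1 to 4, with interleaved groups and means of 155 ± 4.27 and 157 ± 4.17 CPM. Its log2 fold change was 0.013 (95% interval -0.081 to 0.11, edgeR adjusted p = 0.928).

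The GABA-B receptor is an obligate pair of GABBR1, which binds GABA, and GABBR2, which couples to the G protein. Gabbr1 was the most counted of the 9 genes, at 979, 873, 1012 and 1003 CPM in Model 1 to 4 and 989, 974, 985 and 988 CPM in IsoL 1 to 4. Model 2 was the one low library, and the IsoL libraries lay close together. The means were 967 ± 64.2 and 984 ± 6.93 CPM (edgeR log2 fold change 0.025 with a 95% interval of -0.083 to 0.13, adjusted p = 0.867), and without Model 2 the log2 fold change was -0.020. Gabbr2 was at 405, 374, 382 and 413 CPM in Model 1 to 4 and 417, 411, 382 and 385 CPM in IsoL 1 to 4, with overlapping groups (393 ± 18.6 and 399 ± 17.7 CPM) and a log2 fold change of 0.019 (95% interval -0.087 to 0.13, edgeR adjusted p = 0.90). The proportion of the subunits did not differ beyond the spread: the Gabbr1 to Gabbr2 count ratio was 2.34 to 2.65 in Model and 2.37 to 2.58 in IsoL, with a log2 difference of 0.0085 (exact permutation test, two-sided, p = 0.943, adjusted p = 0.943 over 4 ratios). Per base of the deposited gene length Gabbr1 was 2.12 times Gabbr2 in Model and 2.13 times in IsoL.

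Gphn encodes gephyrin, which anchors GABA-A and glycine receptors at inhibitory synapses and also takes part in molybdenum cofactor synthesis. It was at 76.3, 82.2, 74.7 and 74.2 CPM in Model 1 to 4 and 83.3, 79.3, 71.2 and 77.4 CPM in IsoL 1 to 4. The highest and the lowest of all 8 values were both IsoL libraries. The means were 76.8 ± 3.66 and 77.8 ± 5.03 CPM (edgeR log2 fold change 0.018 with a 95% interval of -0.11 to 0.14, adjusted p = 0.924).

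Levels were compared between genes by the deposited FPKM (a count scaled by gene length and library total), as mean ± SD over the 8 libraries. The gene length is a single deposited value that may differ from that of the transcripts expressed, so the order between genes depends on it. Slc6a11 was first at 155 ± 10.6 FPKM, then Gabbr1 at 126 ± 5.58, Gad2 at 86.9 ± 5.94, Abat at 79.2 ± 3.03, Gabbr2 at 59.2 ± 2.17, Gad1 at 54.5 ± 3.34, Slc32a1 at 28.1 ± 1.52, Aldh5a1 at 27.6 ± 0.716 and Gphn at 20.6 ± 1.09. Slc6a11 stood above 99.1% of the tested genes by this measure and Gphn above 84.3%. The ranges of Gad2 and Abat, of Gabbr2 and Gad1, and of Slc32a1 and Aldh5a1 overlapped. Within a library, though, Gad2 was above Abat and Gabbr2 above Gad1 in 8 of 8, whereas Slc32a1 was above Aldh5a1 in 5 of 8. Transcripts of the astrocytic transporter stood above those of either decarboxylase in every library.

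**Figure D4:**
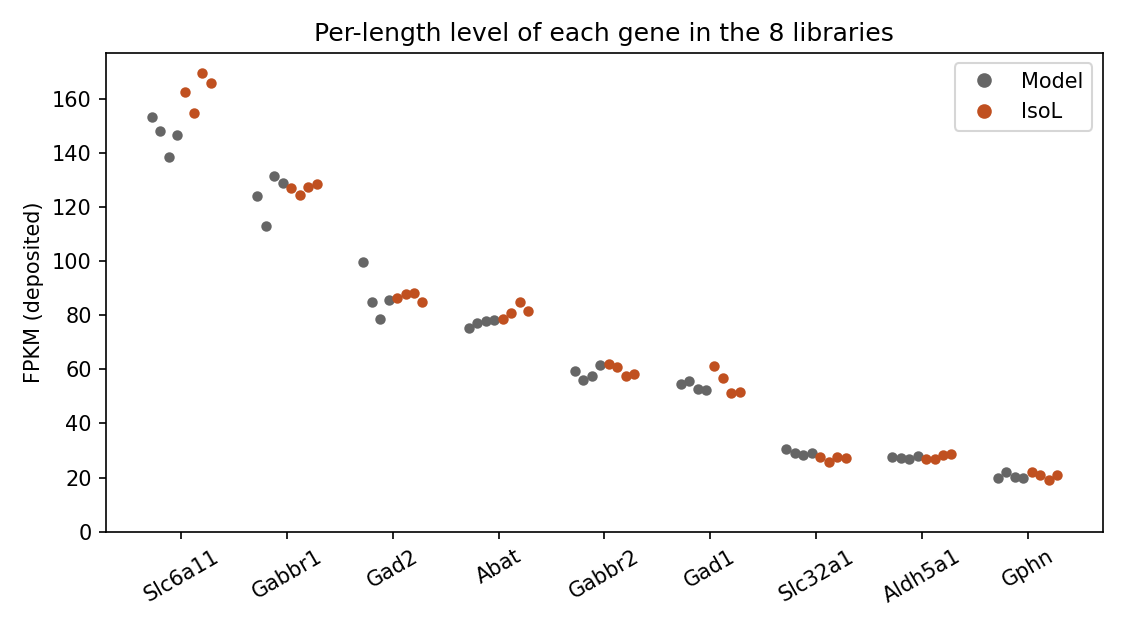
Deposited FPKM of the 9 genes in each library (grey, Model; orange, IsoL), ordered by mean. The order from Slc6a11 to Gphn is the same in every library but for Slc32a1 and Aldh5a1, whose ranges overlap.

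Excitatory and inhibitory markers were set side by side. Slc17a6 encodes VGLUT2, the vesicular glutamate transporter of hypothalamus and thalamus, and averaged 576 ± 39.3 CPM over Model against 513 ± 18.3 over the IsoL libraries (edgeR log2 fold change -0.17 with a 95% interval of -0.28 to -0.051, adjusted p = 0.209). Slc17a7, which encodes VGLUT1, was at 70.3 ± 10.9 and 111 ± 49.2 CPM (edgeR: log2 fold change 0.65, adjusted p = 0.493), with the high values in IsoL 1 and 2 given above. The ratio of summed Gad1 and Gad2 counts to summed Slc17a6 and Slc17a7 counts was 1.51, 1.40, 1.41 and 1.40 in Model 1 to 4 and 1.5, 1.47, 1.5 and 1.5 in IsoL 1 to 4. Model 1 was the highest and the other 3 Model libraries the lowest of all, and the difference of 0.062 on the log2 scale did not pass (exact permutation test, two-sided, p = 0.143, adjusted p = 0.286 over 4 ratios).

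The other genes of the pathway were read from lists by function. Of 18 further genes of GABA transport, precursor supply and cofactors, 0 passed in edgeR and 3 had an unadjusted p under 0.05, against 13.2% of all genes. There were 7 above Model, against 49.5% of all genes, and 11 below. The median log2 fold change was -0.024, and it was above 0 without Model 2 (0.020), Model 3 (0.041), Model 4 (0.0015) or IsoL 2 (0.024). The smallest p were those of Akr7a5, the succinic semialdehyde reductase gene, at 16.1 ± 1.07 and 14.0 ± 0.362 CPM (edgeR: log2 fold change -0.20, adjusted p = 0.316), and Slc38a3, a glutamine transporter gene of astrocytes, at 58.0 ± 3.72 and 64.2 ± 3.40 CPM (edgeR: log2 fold change 0.15, adjusted p = 0.319). Glul, the glutamine synthetase gene that closes the astrocyte cycle back to glutamate and GABA, was at 1272 ± 75.4 and 1298 ± 82.9 CPM, and was named after its values were seen. Slc6a13, a GABA transporter gene of the meninges, also named after its values were seen, was at 3.29 CPM in Model 1 and 8.64 to 24.9 CPM in the other 7 libraries.

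Of 23 partners and effectors of the GABA-B receptor, 0 passed in edgeR and 6 had an unadjusted p under 0.05 (1 above and 5 below Model, against 6.44% and 6.78% of all genes). There were 7 above Model, against 49.5% of all genes, and 16 below. The median log2 fold change was -0.048, and -0.025 without IsoL 4. Adcy5, an adenylyl cyclase gene inhibited through such receptors, was at 200 ± 5.66 and 184 ± 5.26 CPM (edgeR: log2 fold change -0.12, adjusted p = 0.245), and Kctd12, an auxiliary subunit gene of the receptor, at 122 ± 3.38 and 136 ± 10.9 CPM (edgeR: log2 fold change 0.15, adjusted p = 0.274). Both had groups that did not overlap, as did 5 of the 23 in all, 1 above Model (4.05% of all genes) and 4 below (4.42%). Of 16 genes listed for the inhibitory postsynapse, where gephyrin acts, 0 passed in edgeR and 1 had an unadjusted p under 0.05, against 13.2% of all genes. The list also holds Mocs1, Mocs2, Mocs3 and Suox of the molybdenum cofactor pathway, which are not postsynaptic genes. The median log2 fold change of 0.025 ran from -0.0041 (without Model 2) to 0.039 (without Model 4) with a library left out. Slc12a2, which encodes the chloride importer NKCC1, was at 228 ± 5.44 and 251 ± 19.5 CPM (edgeR: log2 fold change 0.14, adjusted p = 0.292), with IsoL 1 and 2 highest at 264 and 268 CPM. Mocs2, of molybdenum cofactor synthesis, was at 51.8 ± 1.61 and 46.5 ± 4.86 CPM (edgeR: log2 fold change -0.15, adjusted p = 0.384).

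Of 15 tested GABA-A receptor subunit genes, 0 passed in edgeR, 5 had an unadjusted p under 0.05 (1 above and 4 below Model, against 6.44% and 6.78% of all genes) and the median log2 fold change was -0.083. That median was -0.050 without Model 1 and -0.054 without IsoL 4. The smallest p were those of Gabra4, at 220 ± 10.4 and 182 ± 21.2 CPM (adjusted p = 0.133), and Gabrq, at 77.7 ± 9.05 and 57.8 ± 8.91 CPM (adjusted p = 0.165). DESeq2, which called 2.14% of all genes, called both lower. Of 26 genes of GABA neuron identity and subclass, 0 passed in edgeR and 8 had an unadjusted p under 0.05, 3 above and 5 below Model, against 6.44% and 6.78% of all genes. The median log2 fold change was -0.17, and it was -0.092 without Model 1 and -0.082 without IsoL 4. Calb1, the calbindin gene of several GABA neuron classes, was at 230 ± 23.7 and 179 ± 14.0 CPM (edgeR: log2 fold change -0.36, adjusted p = 0.0687). Gata3, a transcription factor gene of midbrain GABA neurons, was at 2.95 ± 0.774 and 5.99 ± 1.38 CPM (edgeR: log2 fold change 1.02, adjusted p = 0.0770). Gata3 and Tal1 are themselves on the list of midbrain markers. Of that list 12 of 12 were above Model, against 49.5% of all genes, and 2 passed higher (Dmbx1 and Tfap2d), against 0.117% of all genes. DESeq2 called 5 of the 26 identity genes (against 2.14% of all genes), Calb1, Dlx1 and Isl1 lower and Gata3 and Tal1 higher, and limma voom called 3 (against 1.2%), Calb1, Dlx1 and Isl1, lower. The log2 fold changes of this list ran from -0.62 to 1.02, and those of the GABA-A subunits from -0.43 to 1.05. The value of 1.05 was that of Gabrr2, a gene of few reads, with 40 counts over Model and 100 over IsoL (means 0.669 and 1.40 CPM). The next highest subunit was Gabra5 at 0.087.

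**Figure D5:**
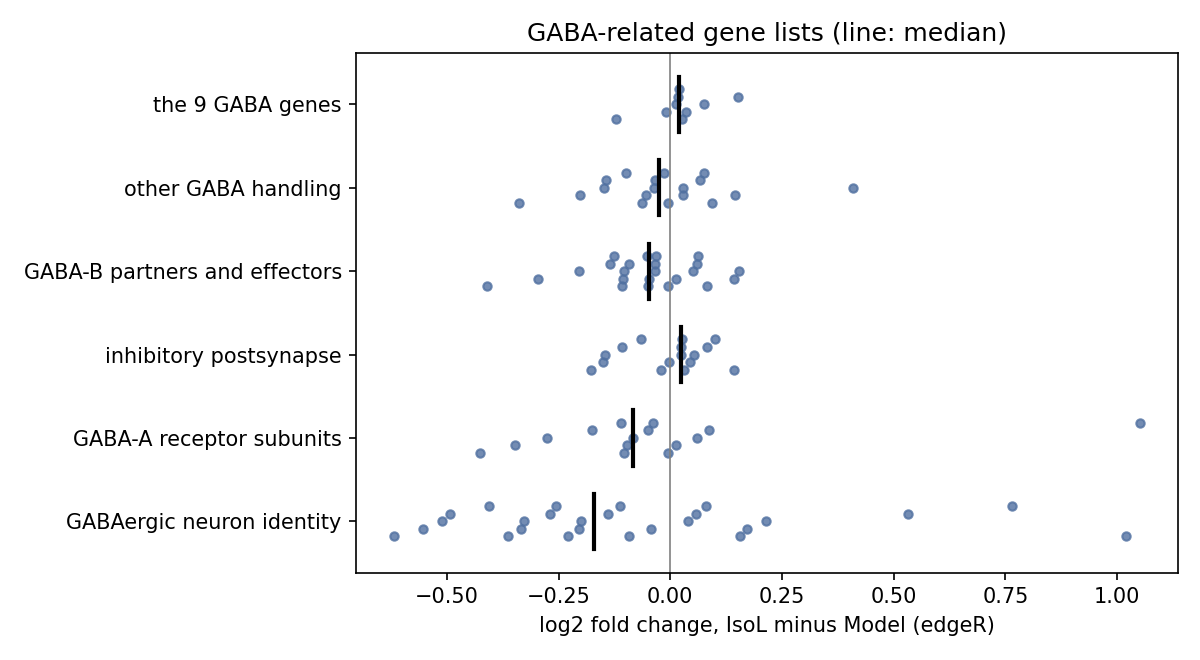
Log2 fold change of IsoL minus Model for the tested genes of each GABA-related list (points) with the list's median (line). The 9 genes lie between -0.12 and 0.15, and genes of GABA neuron identity run from -0.62 to 1.02.

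Genes most like Gad1, Gad2 and Slc32a1 across the libraries were sought among 10243 genes with a mean of at least 10 CPM, by Pearson's r with the mean centred log2 level of the 3 genes over the 8 libraries. That mean was highest in Model 1, at 0.14, and lowest in Model 3, at -0.074, both in the Model group. Among the 5 nearest genes were Pde1b (r = 0.974, Spearman's rho = 0.905), a cyclic nucleotide phosphodiesterase gene, Psmg1 (r = 0.956, rho = 0.905), Nipa2 (r = 0.954, rho = 0.929) and Hs3st4 (r = 0.946, rho = 0.810). Without Model 1 and Model 3, the 2 libraries farthest from the median, r was 0.895, 0.898, 0.997 and 0.839 in the same order. Since they were picked from 10243 values they carry no p and are a description.

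In the deposited table Gad1, Gad2 and Slc32a1 all lie on chromosome 2, at 70383416 to 70432358, 22512217 to 22583886 and 158452687 to 158457668. Slc6a11 is on chromosome 6, at 114108202 to 114226913, Abat on chromosome 16, at 8331293 to 8439432, and Aldh5a1 on chromosome 13, at 25091562 to 25121644. Gabbr1 is on chromosome 17, at 37356858 to 37385959, Gabbr2 on chromosome 4, at 46662305 to 46991873, and Gphn on chromosome 12, at 78273153 to 78731546. The sources used here name no genome build for these coordinates. All 9 genes have the same span as in GENCODE M21, but 8 of 9 start elsewhere than in its GRCm38 coordinates. GENCODE M21 places genes of the opposite strand over Gad1 (Gad1os), Slc32a1 (Gm14205), Slc6a11 (Gm8132), Aldh5a1 (4932702P03Rik and 9330162012Rik) and Gphn (Gm48226, Gm18899 and Gm48224). No strand marking is stated for these libraries, so reads from such opposite-strand transcripts cannot be told apart from those of the genes themselves.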

How the data were processed

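Polyadenylated RNA of 8 libraries was counted. Per the submitters' processing notes, fastp 0.22.0, HISAT2 2.1.0 and HTSeq 0.9.1 were used; the sources used here name neither build nor annotation. Per the file headers, the authors' table gives raw counts for every gene in each library. It also gives deposited FPKM values, which equal the counts scaled by the gene length given and by the library's total. Groups came from the sample titles, and each table column from its name.

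Counts were filtered with filterByExpr (14536 genes kept), scaled by TMM and tested by quasi-likelihood (robust) for IsoL minus Model with edgeR 4.0.16 under R 4.3.3, and p-values were adjusted by Benjamini-Hochberg over all genes, at a threshold of 0.05. The SE is the absolute log2 fold change over the square root of F; intervals are 95%. Values are TMM-scaled CPM, mean ± SD. The smallest two-sided p that the ratio tests can give is 0.0286, so a single ratio could not pass 0.05 after adjustment over the 4. On simulated data 11 of the unchanged genes were called. Alternatives were other size factors, no filter, a replicate block, DESeq2 1.42.0, limma 3.58.1 voom with quality weights, each library left out and, added after seeing the data, only IsoL 3 and 4. Same-numbered libraries were not treated as pairs. The 9 genes and all lists were chosen with earlier results of these data known. The text names, for each pathway list, those passing the test, and where none did the 2 genes of smallest p; exceptions are stated. Promoters are from RefSeq (GRCm38.p6; 8 of 9 members matched). Of the 4 ratios tested 1, and of the 5 nearest genes 1, is not reported here.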

Additional observations from a re-analysis of the deposited data

Results flagged for a closer look

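Within groups of 4, a highest or lowest library whose gap to its neighbour, divided by the group's range, was above Dixon's 95% critical value for 4 samples was looked for in 32 groups of values (9 genes, 3 further transporter genes and 4 ratios in both treatments), and chance flags about 5% of such groups. It was found for 2 groups, both for the ratio of summed Gad1 and Gad2 to summed Slc17a6 and Slc17a7 counts. In Model 1 the ratio was 1.51 against 1.40 to 1.41 in the other Model libraries, a gap of 0.83 of the range. In IsoL 2 it was 1.47 against 1.4984 to 1.5002 in the other IsoL libraries, a gap of 0.93 of a narrow range.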

How the results depend on the processing

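The count of the 9 genes that passed was 0 in every one of the 14 alternatives, and of 126 gene results 112 kept their direction; Slc32a1, Slc6a11 and Abat did so throughout. With a library left out, the log2 fold change was -0.019 to 0.071 for Gad1, -0.056 to 0.069 for Gad2, -0.00014 to 0.027 for Aldh5a1, -0.020 to 0.054 for Gabbr1, -0.0039 to 0.046 for Gabbr2 and -0.014 to 0.057 for Gphn. The Gad1 to Gad2 ratio moved between -0.023 and 0.077 and the Gabbr1 to Gabbr2 ratio between -0.016 and 0.045. The ratio of summed Gad1 and Gad2 to summed Slc17a6 and Slc17a7 moved between 0.050 (without Model 4) and 0.089 (without Model 1). In limma voom Gad2 was at 0.0068, Gabbr1 at -0.011 and Gabbr2 at -0.015. With only IsoL 3 and 4, Gad1 was at -0.076, Gabbr2 at -0.037, Gphn at -0.048 and Slc17a7 at -0.032. The causes were not tested.

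Over all genes, 17 were higher and 23 lower. Those counts were 30 and 44 with no filter, 161 and 150 in DESeq2 and 80 and 95 in limma voom; with a library left out they were 2 to 73 and 3 to 73, the highest without Model 2 (73 and 73), and with only IsoL 3 and 4 they were 18 and 13. The replicate block gave 9 and 8; same-numbered libraries deviated from their group means with a correlation of 0.020 to 0.070, and 1 of 4 Model libraries correlated best with its own number, so the numbers were not taken as pairs. The block changed no call among the 9 genes.

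Genes of GABA neuron identity that passed numbered 2 with no filter, 5 in DESeq2, 3 in limma voom and 0 to 3 with a library left out (3 without Model 2, 1 without IsoL 3). Over all genes, those higher and lower were 30 and 44 with no filter, 161 and 150 in DESeq2 and 80 and 95 in limma voom. They were 73 and 73 without Model 2, and 7 and 9 without IsoL 3. The median of the identity genes was -0.19 to -0.082, the last without IsoL 4, and -0.092 without Model 1. GABA-A subunits that passed numbered 2 in DESeq2 and 1 with only IsoL 3 and 4 (Gabra4). With only IsoL 3 and 4, 1 GABA-B effector (Rgs4) passed as well, and over all genes 18 were higher and 13 lower. The median was -0.084 for the GABA-B partners in limma voom and -0.059 to -0.025 with a library left out (-0.025 without IsoL 4), -0.052 for the GABA-A subunits in limma voom and -0.086 to -0.050 with a library left out (-0.050 without Model 1), -0.038 to 0.041 for other GABA handling with a library left out (0.041 without Model 3), and 0.034 for that list and -0.024 for the 9 genes with only IsoL 3 and 4. The 9 genes had 4571 to 70011 counts summed over a group.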
